A study of Mus musculus with 64 samples.

Results

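The genes described here are the partners of cardiac troponin T on the thin filament of the heart muscle sarcomere: 8 genes chosen by name, the troponin I genes Tnni3 and Tnni1, the cardiac troponin C gene Tnnc1, the tropomyosin genes Tpm1, Tpm2, Tpm3 and Tpm4, and the cardiac actin gene Actc1. Counts were analysed for 7 of the 8, out of 16913 genes in the table, and the filter on low counts kept all genes of the table. Tnni1, the slow skeletal and fetal troponin I, was not analysed here. The mice were of the C57BL/6J strain. TG mice carried a transgene for cardiac troponin T lacking a glutamate (cTnT-delta160E), a mutation of hypertrophic cardiomyopathy, and nTG mice did not carry it. Trained mice ran high intensity interval training on a treadmill for 6 weeks, with 3 sessions of 31 minutes a week, and sedentary mice did not exercise. RNA of the heart was sequenced in 64 libraries. The titles give 7 sedentary nTG males, 9 sedentary TG males, 8 trained nTG males, 8 trained TG males, 8 sedentary nTG females, 8 sedentary TG females, 10 trained nTG females and 6 trained TG females, whereas the series' design text states 7 to 9 for each group. The promoter that drives the transgene and the age of the mice are not given in the sources used here. The question the design puts to these genes is whether the transgene, training and sex changed the mRNAs of the proteins with which troponin T works.

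In a resting heart cell, tropomyosin lies along the actin filament and keeps myosin off it. Calcium binds troponin C, troponin I then lets go of actin, and troponin T, which ties the troponin complex to tropomyosin, passes the movement on, so that tropomyosin shifts and the muscle contracts. The adult heart makes mostly cardiac troponin I, cardiac troponin C, the alpha-tropomyosin of Tpm1 and the cardiac alpha-actin of Actc1, while the actin of skeletal muscle, Acta1, belongs to the fetal heart programme.

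The columns of the gene table do not carry the names of their libraries in the right order. By name, 45 of 64 gene columns contradicted the sex or the genotype of their label, as read from sex-linked genes and from Tnnt2, the gene of cardiac troponin T. Each column of the separate lncRNA table was therefore given the gene column that correlated best with it over 389 autosomal transcripts present in both tables. All 64 pairs were best in both directions, with r of 0.599 or more, while the runner-up never exceeded 0.404, and 1 pair had the same name. With these joined columns, which all values below use, 0 of 64 libraries contradicted the sex and 0 the genotype. That the lncRNA columns carry the right names is an assumption behind every comparison, and the genotype and sex checks are its only test here. Gene totals ran from 34574813 to 67068562 counts, with a median of 48001577, and each analysed gene had at least 498 counts in every library. Levels are in CPM, the counts of a gene per 1000000 counts of the library after TMM scaling.

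The checked gene, Tnnt2, had a higher level in all 31 TG libraries than in any nTG library of the same sex and training. Group means were 2879 to 3332 CPM in nTG and 8231 to 9416 CPM in TG mice, and the mean difference of the 4 comparisons was 1.51 ± 0.034 on the log2 scale. Reads of the transgene and of the mouse gene are not separated in this count. The 6 markers of heart muscle cells were above 0 in every library and together made up 89380 to 123200 CPM. The library of trained TG male replicate 4 stood apart from the other 7 of its group. Its fibroblast markers summed to 1078 CPM against 533.7 to 719.1 CPM in the others, and its Tnnt2 level was 6918 CPM against 8389 to 10300 CPM. Without it, the genotype differences in trained males were -0.17 for Tnnc1, -0.25 for Tpm1, -0.20 for Actc1, -0.18 for Tpm2 and 0.16 for Tpm4, and the calls of the first 3 held (edgeR, adjusted p = 0.00499, 1.9e-05 and 0.0177). Values of Tnni3, Tpm3 and Acta1 without it are given with each gene.

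Stretches of 250 bases before the RefSeq start (GRCm38.p6) are shown for 4 members, chosen because each held a match to a searched motif: Tpm1, Tnnc1 and Actc1, lower in TG hearts in the mean of the 4 genotype comparisons below, and Tpm3, higher there. Tnni3 (lower) and Tpm4 (higher) also passed in that mean, held no match and are not printed. Each is written on the strand of the gene, and the start lies right after the last base. Capitals mark matches, on either strand, to motifs named for muscle gene control.
Tpm1 (chr9:67049214-67049463, minus strand): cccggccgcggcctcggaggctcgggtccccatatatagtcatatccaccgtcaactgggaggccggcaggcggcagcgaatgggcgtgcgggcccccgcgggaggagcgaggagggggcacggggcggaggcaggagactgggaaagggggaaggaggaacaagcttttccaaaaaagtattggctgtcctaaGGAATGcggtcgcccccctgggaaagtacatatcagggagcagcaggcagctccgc
Tnnc1 (chr14:31208062-31208311, plus strand): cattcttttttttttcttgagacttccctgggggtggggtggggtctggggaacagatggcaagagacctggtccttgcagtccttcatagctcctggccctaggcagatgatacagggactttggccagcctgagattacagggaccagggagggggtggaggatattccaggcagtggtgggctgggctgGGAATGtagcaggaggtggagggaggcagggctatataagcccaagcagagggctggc
Actc1 (chr2:114052876-114053125, minus strand): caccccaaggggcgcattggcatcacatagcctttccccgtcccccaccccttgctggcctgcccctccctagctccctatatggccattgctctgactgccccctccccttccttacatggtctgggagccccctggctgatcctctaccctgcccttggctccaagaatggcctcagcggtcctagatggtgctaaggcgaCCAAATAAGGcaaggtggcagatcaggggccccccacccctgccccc
Tpm3 (chr3:90072401-90072650, plus strand, the first of 2 starts): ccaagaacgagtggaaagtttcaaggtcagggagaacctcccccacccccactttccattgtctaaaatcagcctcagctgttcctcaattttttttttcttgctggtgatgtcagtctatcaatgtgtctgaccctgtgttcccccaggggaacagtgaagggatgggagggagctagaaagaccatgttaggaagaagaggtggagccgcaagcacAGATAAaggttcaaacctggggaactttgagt
Tpm1 and Tnnc1 each held 1 M-CAT element (CATTCC, here as its reverse complement), the first base of which lay 56 bases before the start in Tpm1 and 58 bases before it in Tnnc1. Of 32851 windows of this length, 12.6% held that motif. Actc1 held 1 CArG box 47 bases before its start, a motif found in 1.47% of windows. Tpm3 held 1 GATA motif (AGATAA) 32 bases before its first start, which 9.99% of windows held. The MEF2 box and the TATA box (TATAAA) were searched too and matched in none of the 8 windows of the 7 members, and Tnni3, Tpm2 and Tpm4 held no match to any of the 5 motifs. A match describes letters in these windows and nothing about what binds there, and no data on binding were used.

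Levels of different genes depend on the length by which counts are divided, and which length suits these counts was not tested. Per kilobase of coding sequence, Actc1 had the highest level of the members, with a median over the 64 libraries of 5280 CPM per kb. Per kilobase of whole exon length Actc1 was also the highest, at 3691 CPM per kb. Tpm1 (3244), Tnni3 (3178) and Tnnc1 (2975) had medians close to each other by coding length only. By exon length they were 713 (Tpm1), 1340 (Tnni3) and 1380 (Tnnc1) CPM per kb. By coding length, Tpm4 (88.8), Tpm3 (41.7) and Tpm2 (17.2), the tropomyosins of non-muscle and other muscle cells, were far lower. Across groups each member moved little: the highest group mean was 1.16 (Tnni3) to 1.27 (Tpm1) times the lowest for 6 of the 7, and 1.61 times for Tpm2. When the 8 groups were put in order of their mean CPM, neighbouring groups did not differ by more than the sum of their SDs for any member.

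**Figure D1:**
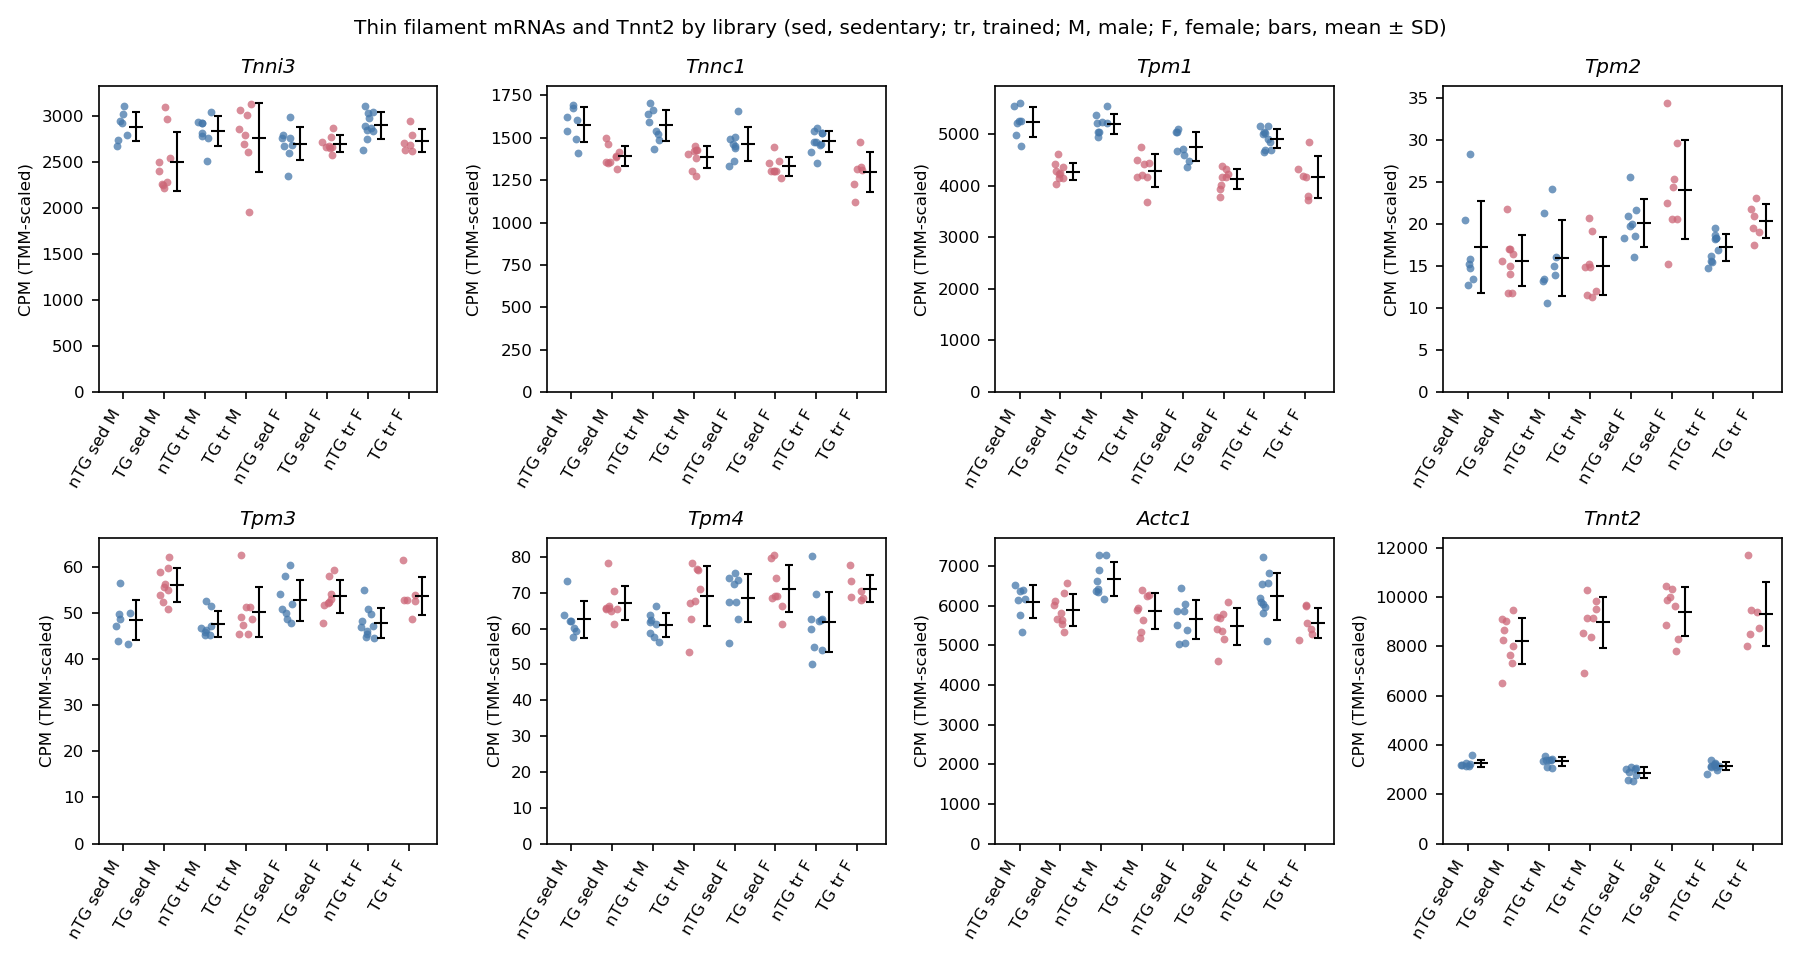
Level of each analysed gene and of Tnnt2 in CPM (vertical axes from 0) in the 8 groups, with 1 point per library (blue, nTG; red, TG) and bars for the mean ± SD. Tpm1 in TG males lay below every nTG male library of the same training, while the groups of the other members overlapped, and Tnnt2 shows the separation of the genotypes.

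Between genotypes, 4 members were lower and 2 higher in TG hearts when the 4 comparisons (sedentary and trained, male and female) were averaged, and Tpm2 did not pass the test. The lower ones, Tpm1, Tnnc1, Actc1 and Tnni3, are the abundant heart muscle forms, and the higher ones, Tpm3 and Tpm4, are scarce. This makes 6 of 7 members past an adjusted p under 0.05 in edgeR's quasi-likelihood test, where 39% of all genes passed. The genes with a mean of at least 1000 CPM, a limit chosen after the data were seen and leaving out mitochondrial genes, passed in 80.0% of 70 cases, 46 of them lower and 10 higher, so the abundant members are among many abundant mRNAs with a lower share. The median difference was -0.082 for the 7 members and 0.007 for all genes, on the log2 scale. In bulk tissue, fewer heart muscle cells and less of an mRNA per cell cannot be told apart.

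Within the comparisons, 4 of 7 members passed in sedentary males (20.6% of all genes), 3 in males after training (14%), 2 in sedentary females (4.37%) and 5 in females after training (14.8%). Tpm1 and Tnnc1 passed in all 4 comparisons. Of the others, Actc1 and Tpm3 passed in 2 comparisons each, Tnni3 and Tpm4 in 1 each, and Tpm2 in none. The share of all genes passing in all 4 was not computed, and it cannot exceed the 4.37% of sedentary females. Groups that did not overlap were seen for Tpm1 in both male comparisons and for no member in females, where 0.52% (sedentary) and 2.57% (trained) of all genes had such groups. A call in one comparison and not in another is no difference between them: no interaction of genotype with sex or training passed for any member. Of the 70 abundant genes, 32 were lower and 7 higher in sedentary males, 25 and 5 in trained males, 9 and 5 in sedentary females and 36 and 4 in trained females.

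Tpm1 makes the alpha-tropomyosin that troponin T binds, and it had the clearest decrease. In sedentary males its level ran from 4770 to 5595 CPM (median 5247) in nTG and from 4025 to 4605 CPM (median 4241) in TG hearts. The groups did not overlap, as for 2.1% of all genes. The change was -0.29 ± 0.043 on the log2 scale (edgeR, adjusted p = 1.206e-06).

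In trained males, Tpm1 ran from 4949 to 5552 CPM (median 5207) in nTG and from 3685 to 4757 CPM (median 4311) in TG mice, again without overlap, as for 1.82% of all genes, and fell by 0.28 ± 0.042 (edgeR, adjusted p = 4.971e-06). In sedentary females it ran from 4364 to 5097 CPM (median 4689) in nTG and from 3784 to 4374 CPM (median 4166) in TG mice. Here 7 of 8 TG libraries lay below all nTG libraries, and the change was -0.20 ± 0.042 (edgeR, adjusted p = 0.001245). In trained females the range was 4646 to 5146 CPM (median 4945) in nTG and 3716 to 4849 CPM (median 4179) in TG mice. Of these 6 TG libraries, 5 lay below all nTG libraries, and Tpm1 fell by 0.23 ± 0.044 (edgeR, adjusted p = 0.0001432). Over the 4 comparisons, all 31 TG libraries were below the nTG median of their sex and training. Of these, 29 were below every such nTG library, and these counts were not made for all genes. The mean change was -0.25 ± 0.022 (edgeR, adjusted p = 7.42e-15), and every fit that left out a library kept Tpm1 past the threshold in each of the 4 comparisons.

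Tnnc1 encodes the calcium sensor of the troponin complex, shared by heart and slow muscle. Its level in sedentary males was 1409 to 1695 CPM (median 1607) in nTG and 1315 to 1501 CPM (median 1386) in TG hearts, and in trained males 1436 to 1703 CPM (median 1566) and 1274 to 1449 CPM (median 1412). In sedentary females it was 1334 to 1659 CPM (median 1458) in nTG and 1265 to 1447 CPM (median 1306) in TG mice, and in trained females 1350 to 1558 CPM (median 1473) and 1120 to 1476 CPM (median 1315). The genotypes overlapped in every comparison, yet 30 of 31 TG libraries lay below the nTG median of their stratum and 23 below all its nTG libraries. These counts were not made for all genes. In males Tnnc1 fell by 0.18 (sedentary) and 0.18 (trained), with edgeR adjusted p of 0.00135 and 0.00168. In females it fell by 0.14 (sedentary) and 0.19 (trained), with edgeR adjusted p of 0.0459 and 0.00173, and all 4 standard errors were 0.042 to 0.044. The call in sedentary females was close to the threshold: it held in 3 of 16 fits that left out a library, whose values were -0.155 to -0.109 (adjusted p up to 0.164), and it was lost with median-of-ratios scaling (-0.13, adjusted p = 0.0570) and in females alone (-0.13, adjusted p = 0.0988).

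Tnni3 is the troponin I of the adult heart, the subunit that holds actin at rest and that protein kinase A phosphorylates. Sedentary males had 2672 to 3102 CPM (median 2924) in nTG and 2221 to 3098 CPM (median 2405) in TG hearts. Of 9 TG libraries, 7 lay below all nTG libraries and the other 2 within their range, so that the groups overlapped. Tnni3 fell there by 0.20 ± 0.060 (edgeR, adjusted p = 0.00932), and the call was lost in a fit of males alone (adjusted p = 0.0512). In the other comparisons the differences were -0.037 for trained males, -0.0009 for sedentary and -0.086 for trained females (edgeR, adjusted p = 0.743, 0.997 and 0.369). Without trained TG male replicate 4, which had the lowest Tnni3 of all libraries (1953 CPM), the value in trained males was 0.022. The mean of the 4 comparisons ran from -0.093 to -0.061 in the 64 fits that left out a library, with edgeR adjusted p up to 0.0475. The difference between the sexes in the sedentary genotype effect was 0.20 ± 0.084, with an edgeR adjusted p of 0.516.

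Actc1 encodes the actin of which the cardiac thin filament is built. In trained males it ran from 6176 to 7279 CPM (median 6516) in nTG and from 5190 to 6397 CPM (median 5921) in TG hearts, and in trained females from 5104 to 7212 CPM (median 6135) and from 5128 to 6021 CPM (median 5477). In males 5 of 8 TG libraries lay below all nTG libraries, and in females 0 of 6 did, although all 6 lay below the nTG median. Actc1 fell by 0.19 ± 0.056 in trained males (edgeR, adjusted p = 0.0181) and by 0.16 ± 0.058 in trained females (edgeR, adjusted p = 0.0469). Sedentary medians were 6154 CPM in nTG males, 5816 CPM in TG males, 5679 CPM in nTG females and 5543 CPM in TG females. The sedentary differences were -0.050 and -0.045, and neither passed. Both calls in trained mice were close to the threshold. In trained males the call was lost without TG replicate 2 (adjusted p = 0.0503) or nTG replicate 5 (0.0501). In trained females it held in 6 of 16 fits that left out a library. There it was lost with DESeq2 (adjusted p = 0.0544), median-of-ratios scaling (0.0655) and in females alone (0.0940). The mean of the 4 comparisons ran from -0.118 to -0.097 in the 64 fits that left out a library, with edgeR adjusted p up to 0.00404.

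Tpm3 makes slow muscle and non-muscle tropomyosins. Sedentary males had 43.2 to 56.4 CPM (median 48.6) in nTG and 50.7 to 62.1 CPM (median 55.6) in TG hearts. All 9 TG libraries exceeded the nTG median and 3 exceeded every nTG library. Tpm3 rose by 0.21 ± 0.056 (edgeR, adjusted p = 0.00378). In trained females it rose by 0.16 ± 0.057, from 44.6 to 55 CPM (median 47) in nTG to 48.7 to 61.4 CPM (median 52.8) in TG mice (edgeR, adjusted p = 0.0402), a call kept in 6 of 16 fits that left out a library. The differences in trained males and sedentary females were 0.076 and 0.024 and did not pass, and without TG replicate 4 the value in trained males was also 0.024. The mean of the 4 comparisons was 0.12 ± 0.028 (edgeR, adjusted p = 0.000404).

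Tpm4 is a tropomyosin of non-muscle cells. Its level in trained females was 50.2 to 80.2 CPM (median 62.3) in nTG and 68.0 to 77.6 CPM (median 69.6) in TG hearts. The TG range lay inside the nTG range, with all 6 TG libraries above the nTG median. Tpm4 rose by 0.20 ± 0.069 (edgeR, adjusted p = 0.0391), and the call held in 9 of 16 fits that left out a library and was lost in females alone (0.21, adjusted p = 0.0572). In trained males, where nTG hearts had 56.2 to 66.4 CPM and TG hearts 53.5 to 78.4 CPM, 6 of 8 TG libraries exceeded all nTG libraries, and the difference of 0.18 ± 0.067 did not pass (edgeR, adjusted p = 0.0615). It passed with limma voom (adjusted p = 0.0436), in a fit of males alone (0.0381) and without TG replicate 1 (0.0123), TG replicate 5 (0.0442) or nTG replicate 3 (0.0449). Without TG replicate 4 it was 0.16, with an edgeR adjusted p of 0.148. Sedentary differences were 0.10 in males and 0.051 in females, and neither passed. Leaving out a library gave 0.079 to 0.151 in sedentary males and 0.013 to 0.079 in sedentary females. The mean of the 4 comparisons was 0.13 ± 0.034 (edgeR, adjusted p = 0.00115).

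Fibroblast and macrophage markers were higher where Tpm3 and Tpm4 were higher in the mean, and endothelial and smooth muscle markers were not. All 6 fibroblast markers and all 6 macrophage markers were higher in TG hearts in the mean of the 4 comparisons, with median log2 changes of 0.37 and 0.43. Of the fibroblast and macrophage lists, 6 and 6 genes passed in sedentary males, 3 and 4 after training, 1 and 0 in sedentary females, and 3 and 5 after training. The summed fibroblast markers had medians of 504.2 to 582.0 CPM in the nTG groups (range over libraries 424.5 to 831.8) and 607.1 to 761.3 CPM in the TG groups (range 523.7 to 1078), with no marker at 0 in any library. The summed macrophage markers ran from 106.0 to 201.1 CPM in nTG and from 146.9 to 255.0 CPM in TG libraries, also with none at 0. Of the 6 heart muscle cell markers, 1 was higher and 3 were lower, and of 7 blood markers 0 were higher and 4 lower. The 6 endothelial and the 6 smooth muscle markers each gave 0 higher and 1 lower, with medians of -0.032 and -0.156. Of 8 skeletal muscle markers 2 were tested, with 1 higher and 0 lower both in this mean and in sedentary males. Blood markers fell most often in trained males, where 5 of 7 passed and their sum was 574.4 to 1115 CPM in nTG and 261.0 to 555.6 CPM in TG hearts. The part of any of these in the changes of the members was not tested.

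Tpm2, the beta-tropomyosin of skeletal and smooth muscle, passed in no genotype comparison. Its median was 15.3 CPM in nTG and 15.6 CPM in TG sedentary males, 14.5 and 14.9 CPM in trained males, 19.9 and 23.5 CPM in sedentary females and 17.6 and 20.3 CPM in trained females. Its SD within groups reached 31.7% of the mean, against at most 13.7% for the other 6. The differences were -0.14 and -0.098 in sedentary and trained males and 0.26 and 0.24 in sedentary and trained females, with standard errors of 0.14 to 0.15. The male values rested on single libraries and went against the medians: without nTG replicate 5 the sedentary value was 0.031, and without nTG replicate 2 the trained value was 0.014. Without TG replicate 3 the value in sedentary females was 0.17. The difference between the sexes in the genotype effect was 0.40 ± 0.20 in sedentary mice, with an edgeR adjusted p of 0.574, and 0.23 without nTG male replicate 5. The 6 smooth muscle markers, which share its tissue, gave 0 higher and 1 lower in the mean of the 4 comparisons.

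**Figure D2:**
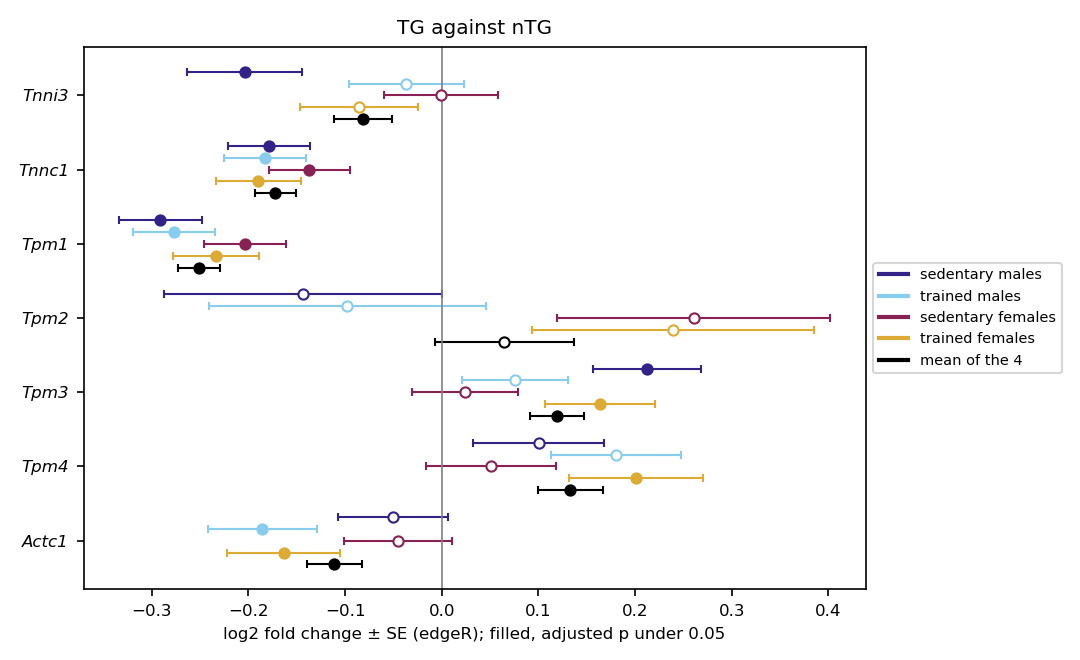
Difference between TG and nTG hearts of each analysed gene on the log2 scale (horizontal axis) with its standard error, in the 4 comparisons and in their mean; filled points passed an adjusted p under 0.05 in edgeR. Tpm1 and Tnnc1 lie left of 0 with filled points in all 4 comparisons, between -0.29 and -0.14, while Tpm3 and Tpm4 lie to the right.

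The shares of the isoforms moved with the levels. Per kilobase of coding sequence, Tpm1 made up 96.3% ± 0.34 (SD, n = 7) of tropomyosin mRNA in sedentary nTG males and 95.2% ± 0.40 (SD, n = 9) in sedentary TG males. The lowest nTG library was at 95.74% and the highest TG library at 95.66%, so these groups did not overlap. In trained males the share was 96.4% ± 0.16 (SD, n = 8) and 95.2% ± 0.84 (SD, n = 8), in sedentary females 95.5% ± 0.51 (SD, n = 8) and 94.6% ± 0.60 (SD, n = 8), and in trained females 96.1% ± 0.39 (SD, n = 10) and 94.8% ± 0.31 (SD, n = 6). The genotypes overlapped in trained males (nTG from 96.06%, TG up to 96.29%) and in sedentary females (from 94.55%, up to 95.62%), and did not in trained females (from 95.25%, up to 95.18%). Tpm4 was the largest of the other tropomyosins, at 2.21% in nTG and 2.87% in TG sedentary males. With whole exon length in place of coding length the Tpm1 share was 92.8% to 95.1% over the groups. These shares combine values tested above and were given no test of their own.

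Actc1 shares its place with the skeletal alpha-actin, Acta1. Per coding length, Actc1 made up 97.2% ± 1.1 (SD, n = 7) of their sum in sedentary nTG males and 92.0% ± 3.3 (SD, n = 9) in sedentary TG males. In sedentary females the share was 97.1% ± 1.2 (SD, n = 8) and 93.7% ± 2.3 (SD, n = 8). In trained mice it was 96.2% ± 2.7 (SD, n = 8) and 95.5% ± 2.3 (SD, n = 8) in males and 97.8% ± 1.0 (SD, n = 10) and 95.5% ± 1.4 (SD, n = 6) in females. In sedentary mice Acta1 rose: by 1.63 ± 0.36 in sedentary males (edgeR, adjusted p = 0.000612) and by 1.11 ± 0.35 in sedentary females (edgeR, adjusted p = 0.0477). Its level in sedentary males was 63.3 to 267.7 CPM (median 179.1) in nTG and 200.8 to 951.0 CPM (median 493.8) in TG hearts, which overlapped. The call in sedentary females held in 5 of 16 fits that left out a library (values from 0.913 to 1.302, adjusted p up to 0.146) and was lost with DESeq2 (adjusted p = 0.0583). In trained mice the differences of Acta1 were 0.098 ± 0.34 in males and 0.87 ± 0.35 in females and did not pass (edgeR, adjusted p = 0.893 and 0.0775). Without TG replicate 4 the difference in trained males was -0.22 and the Actc1 share of TG males 96.2% ± 0.92 (SD, n = 7). Leaving out another library instead gave up to 0.43 for Acta1 in trained males, and 0 of 16 such fits passed. In trained females Acta1 passed with limma voom (1.11, adjusted p = 0.00978), in females alone (0.88, adjusted p = 0.0399) and without nTG replicate 2 (1.12, adjusted p = 0.0188). The coding sequences of these actins are alike, so reads could be divided between them by the counting tool.

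Against troponin I, Tnnt2 stood at a ratio near 1 per coding length in nTG hearts, with means of 0.967 to 1.07 in the 4 groups, and at 2.97 to 3.16 in TG hearts. Against Tnnc1 the ratio was 0.990 to 1.07 in nTG and 2.98 to 3.61 in TG hearts. No TG library came near the nTG range: the lowest ratio to Tnni3 in TG was 2.48 and the highest in nTG was 1.11. The ratio of Tnni3 to Tnnc1 per coding length had group means between 1.00 and 1.17. Means in nTG and TG hearts were 1.018 and 0.9995 in sedentary males and 1.005 and 1.104 in trained males. In females they were 1.024 and 1.127 (sedentary) and 1.088 and 1.174 (trained), and this ratio was not tested. The size of a ratio depends on the length used, since by exon length the ratio of Tnnt2 to Tnni3 was 0.284 to 0.313 in nTG and 0.872 to 0.929 in TG hearts. The lengths cancel in the fold between the genotypes.

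**Figure D3:**
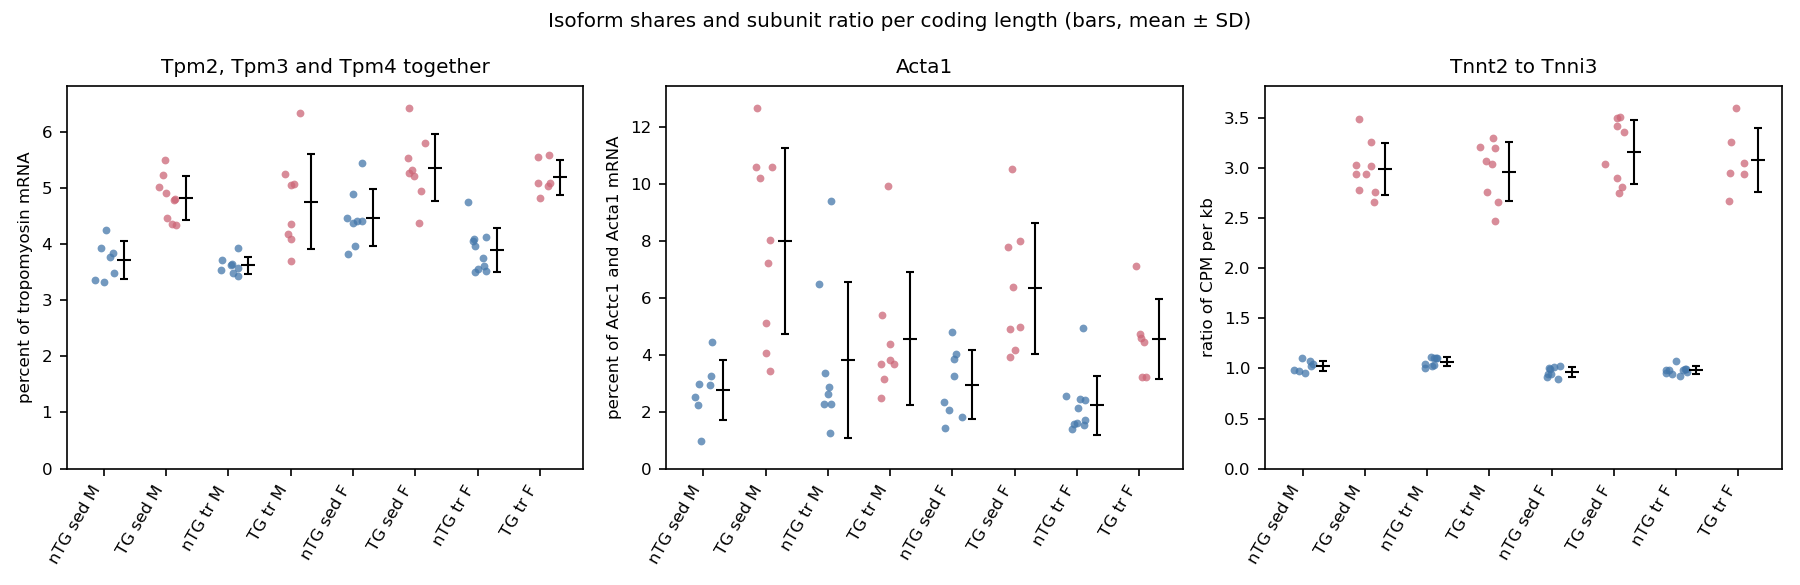
Percent of tropomyosin mRNA from Tpm2, Tpm3 and Tpm4 together (left), percent of Acta1 in the sum of Actc1 and Acta1 (middle) and ratio of Tnnt2 to Tnni3 (right), all per coding length, with 1 point per library and bars for the mean ± SD. The minor tropomyosins had a higher mean share in TG than in nTG hearts in all 4 comparisons, the Acta1 share of trained males overlapped widely between genotypes, and the mean ratio was 2.97 to 3.16 in TG and 0.967 to 1.07 in nTG hearts.

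In TG males 1 of 7 members passed for training, where 18% of all genes did, a count near that background: Tpm3 fell by 0.16 ± 0.054 in trained against sedentary mice (edgeR, adjusted p = 0.0291). Its level went from 50.7 to 62.1 CPM (median 55.6) in sedentary to 45.4 to 62.5 CPM (median 48.9) in trained TG males, and 5 of 8 trained libraries lay below all sedentary ones. The highest trained value belonged to replicate 4, and without it Tpm3 fell by 0.22 (edgeR, adjusted p = 0.0017). The call was lost without any one of 6 other libraries: trained replicates 1, 2, 3 and 7 and sedentary replicates 4 and 6, with adjusted p up to 0.0750. Sedentary TG males had the highest median of the fibroblast markers, 761.3 CPM, against 607.1 CPM in trained TG males. In this comparison 2 of 6 fibroblast, 3 of 6 macrophage, 2 of 6 endothelial, 1 of 6 smooth muscle and 6 of 7 blood markers were lower, and 2 of 6 heart muscle cell markers were higher. The blood markers had a median change of -1.45, and their sum was 291.2 to 4627 CPM (median 550.0) in sedentary and 261.0 to 555.6 CPM (median 385.6) in trained TG males. The part of these in the fall of Tpm3 was not tested.

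Tnni3 in TG males had a median of 2405 CPM in sedentary and 2820 CPM in trained hearts, and 7 of 8 trained libraries exceeded the sedentary median. The difference of 0.14 ± 0.058 did not pass (edgeR, adjusted p = 0.0741). It passed without trained replicate 4 (0.19, adjusted p = 0.00372), without sedentary replicate 7 (0.18, adjusted p = 0.0146) or without sedentary replicate 8 (0.18, adjusted p = 0.0245), and with limma voom and sample weights (adjusted p = 0.00425). In TG females 0 of 7 members passed, as did 0.0% of all genes, and none of the 7 had an unadjusted p under 0.05, against 3.58% of all genes.

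In nTG mice 0 of 7 members passed with training in males (0.0% of all genes) and 0 in females (0.148%), with edgeR. At an unadjusted p under 0.05, 1 member in males and 3 in females remained, against 5.91% and 14.2% of all genes. Actc1 was the member in males, where its median was 6154 CPM in sedentary and 6516 CPM in trained hearts, a difference of 0.13 ± 0.058 with an adjusted p of 0.789 in edgeR. In females its medians were 5679 and 6135 CPM, and the difference was 0.14 ± 0.053 with an adjusted p of 0.205. Averaged over the sexes it was 0.14 ± 0.040 (edgeR, adjusted p = 0.102), and it passed without trained nTG female replicate 7 (adjusted p = 0.0425). In TG mice the values for Actc1 were -0.0055 in males and 0.023 in females, and its interaction of genotype with training was -0.14 ± 0.080 in males and -0.12 ± 0.081 in females, with adjusted p of 0.428 and 0.83. The other members with an unadjusted p under 0.05 in nTG females were Tpm3 (-0.14 ± 0.052) and Tpm4 (-0.15 ± 0.064).

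The mean over the sexes had 0 of 7 members past the threshold in TG mice (0.52% of all genes) and 0 in nTG mice (0.384%) in edgeR, with 0 and 2 at an unadjusted p under 0.05 (19.2% and 12.7% of all genes). Genotype by training gave 0 of 7 in males and in females (0.0% of all genes in each), with 0 at an unadjusted p under 0.05 in both (14.8% and 6.46% of all genes). Training by sex in TG mice gave 0 of 7 (0.0%), with 1 at an unadjusted p under 0.05 (18.1%). Tpm1 and Tnnc1, the members that passed in all 4 genotype comparisons, had training differences between -0.037 and 0.048 in the 4 groups of the same sex and genotype. The 95% interval of the largest of these, Tpm1 in nTG females, reached 0.127.

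**Figure D4:**
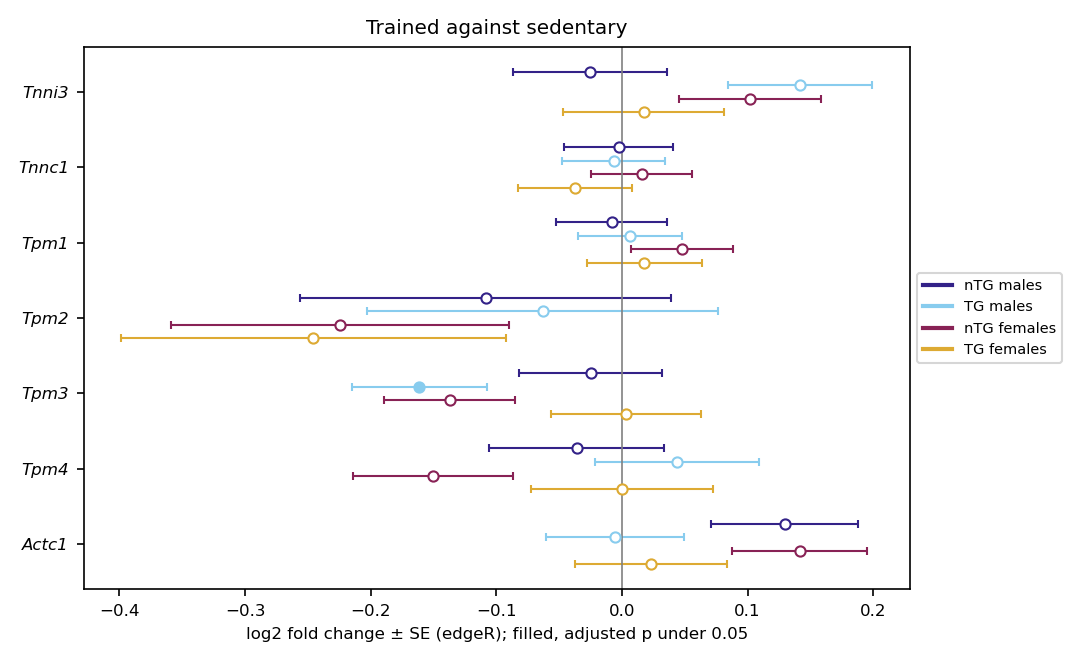
Difference between trained and sedentary hearts of each analysed gene on the log2 scale (horizontal axis) with its standard error, in nTG and TG mice of each sex; the filled point passed an adjusted p under 0.05 in edgeR. Tpm3 in TG males, at -0.16, is the filled point, and Actc1 lies at 0.13 and 0.14 in nTG mice and near 0 in TG mice.

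Between the sexes, Tpm2 was higher in sedentary TG females than in sedentary TG males, at 15.2 to 34.4 CPM (median 23.5) against 11.8 to 21.8 CPM (median 15.6). The groups overlapped, and 5 of 8 females exceeded every male. Tpm2 rose by 0.63 ± 0.14 (edgeR, adjusted p = 0.00425), the 1 member of 7 to pass where 3.83% of all genes did, and it passed in all 17 fits that left out a library. Beside it, 6 of 7 blood markers were lower in females (median -1.02), with sums of 316.2 to 1177 CPM in females and 291.2 to 4627 CPM in males. The smooth muscle list, with 0 of 6 past the threshold, had a median of 0.087, and 1 of 2 skeletal muscle markers tested (median 0.239) and 1 of 6 endothelial markers (median -0.088) were lower in females. The part of these markers in the difference of Tpm2 was not tested. In nTG mice the difference was 0.22 ± 0.15, or 0.39 without male replicate 5, and did not pass, and of the 7 members 0 passed in edgeR, with 3 at an unadjusted p under 0.05 (2.22% of all genes passed and 15.2% had such a p). Tpm1 was among those 3, at -0.14 ± 0.044 (adjusted p = 0.0779), and passed with DESeq2 (adjusted p = 0.0492) and with limma voom (adjusted p = 0.0475). Genotype by sex gave 0 of 7 in sedentary and in trained mice (0.0% of all genes in each), with 3 and 0 at an unadjusted p under 0.05 (8.7% and 5.38% of all genes).

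Libraries of the same group differed together in some members. After each group's mean was subtracted, log2 CPM of the 7 members and Tnnt2 gave 28 pairs over 64 libraries, and 7 pairs had an adjusted permutation p under 0.05 for both Pearson's r and Spearman's rho (100000 permutations within groups, two-sided, adjusted over the 28 pairs). Tnni3 followed Tnnt2, with r = 0.64 and rho = 0.55 (permutation p = 1e-05 and 2e-05, adjusted 0.00014 and 0.000467), where 1e-05 is the smallest p these permutations can give. Tnni3 ran against Tpm3, with r = -0.61 and rho = -0.52 (permutation p = 1e-05 and 5e-05, adjusted 0.00014 and 0.000467). Within the groups the first was positive in all 8 and the second positive in 0. Without the 2 libraries farthest from the median of Tnni3, r was 0.53 for Tnnt2 and -0.51 for Tpm3. The share of such pairs among all genes was not computed, so whether 7 of 28 is unusual is not known.

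Tpm3 and Tpm4 varied together, with r = 0.56 and rho = 0.49 (permutation p = 2e-05 and 0.00017, adjusted 0.000187 and 0.00119), positive in 8 of 8 groups and 0.57 without the 2 farthest libraries. Tnnc1 and Tpm1 did so too, with r = 0.54 and rho = 0.54 (permutation p = 5e-05 and 4e-05, adjusted 0.00035 and 0.000467), positive in 8 of 8 groups and 0.50 without the 2 farthest. Tpm1 and Tpm2 ran against each other, with r = -0.44 and rho = -0.41 (permutation p = 0.00021 and 0.00147, adjusted 0.00098 and 0.00648), negative in 8 of 8 groups and -0.39 without the 2 farthest. Tnni3 and Tpm1 had r = 0.48 and rho = 0.41 (permutation p = 0.00019 and 0.00139, adjusted 0.00098 and 0.00648), positive in 6 of 8 groups and 0.38 without the 2 farthest. Tpm4 and Actc1, of which the first was higher and the second lower in TG hearts in the mean of the 4 comparisons, varied in the same direction within groups, with r = 0.48 and rho = 0.41 (permutation p = 0.0004 and 0.00162, adjusted 0.0016 and 0.00648), positive in 7 of 8 groups and 0.40 without the 2 farthest. All genes of a library share its depth and scaling.

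Of 12181 genes ranked by the same correlation, the 3 with the highest r are given for each member. Mb was among them for both Tnnc1 and Tpm1, and Myh9 for both Tpm3 and Tpm4. Tnni3 was followed most closely by Etfb (r = 0.914), Ndufv1 (0.877) and Gcdh (0.873), all of mitochondrial metabolism. Tnnc1 was followed by Mb, the myoglobin gene (0.757), Pm20d2 (0.659) and Csrp3, a muscle LIM protein (0.644). Tpm1 was followed by Dtnbp1 (0.728), Mb (0.694) and Cuedc2 (0.675), and Actc1 by Srl, the sarcalumenin of the sarcoplasmic reticulum (0.808), Itga9 (0.645) and Plod1 (0.643). Tpm3 was followed by Rhoc (0.831), the non-muscle myosin Myh9 (0.826) and the actin-binding Cap1 (0.817). Tpm4 was followed by Myh9 (0.73), Ccnd1 (0.707) and Nes (0.672), and Tpm2 by the non-muscle myosin Myh10 (0.637), Arhgap6 (0.627) and Itga8 (0.59). These genes were picked as the highest of many and were not tested.

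Among the remaining genes of the thin filament, the lists were described by their counts in the mean of the 4 genotype comparisons, in which 18.5% of all genes were higher and 20.5% lower. Of 3 other troponin subunits tested, Tnnt2 and the fast skeletal Tnni2 were higher and the slow skeletal Tnnt1 lower. Tnni2 changed by 0.57 ± 0.14 (edgeR, adjusted p = 0.000736) and was nearly absent, at 0.156 to 1.57 CPM. Of 5 other actins, 3 were higher and 0 lower: Acta1 (0.93 ± 0.17), the cytoplasmic Actg1 (0.14 ± 0.040) and the cytoplasmic Actb (0.12 ± 0.039).

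Of 22 genes for thin filament length, capping and assembly, 5 were higher and 8 lower. Tmod1, which caps the pointed end of the filament, fell by 0.17 ± 0.019, and the formin Fhod3 fell by 0.22 ± 0.027 (edgeR, adjusted p = 6.76e-11 and 6.83e-10). Tmod4, the tropomodulin of skeletal muscle, fell by 0.27 ± 0.055, and the actin-binding Xirp1 by 0.14 ± 0.029. Xirp2, its relative at the intercalated disc, rose by 0.29 ± 0.049, and Cap1 rose by 0.13 ± 0.027. The median of the list was -0.017, against 0.007 for all genes.

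Of 10 kinases and phosphatases known to act on troponin I or tropomyosin, 3 were higher and 2 lower. Prkaca, a catalytic subunit of protein kinase A, fell by 0.18 ± 0.022, and Tnni3k, a kinase that binds cardiac troponin I, fell by 0.17 ± 0.027 (edgeR, adjusted p = 9.54e-10 and 2.36e-07). Prkacb, another catalytic subunit of protein kinase A, did not pass in the mean (0.009 ± 0.015, edgeR, adjusted p = 0.65). With training in TG males Prkacb rose by 0.118 ± 0.028 (edgeR, adjusted p = 0.00344). Pak1, a low mRNA of 0.708 to 2.68 CPM, rose by 0.39 ± 0.085, Prkd1 rose by 0.12 ± 0.042, and Prkca, a protein kinase C that passed in the mean but in none of the 4 comparisons and was named after its values were seen, rose by 0.090 ± 0.025 (edgeR, adjusted p = 0.00282). Prkcd and Ppp2ca passed in other comparisons and had mean changes of 0.071 and -0.039. The median of the list was 0.008.

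Of 8 thick filament genes, given for comparison, 2 were higher and 5 lower, with a median of -0.16. Mybpc3, the cardiac myosin-binding protein C, fell by 0.23 ± 0.027, Myl2 by 0.20 ± 0.033, Myh6 by 0.16 ± 0.026 and Myl3 by 0.15 ± 0.028, beside mean changes of -0.25 in Tpm1 and -0.17 in Tnnc1. Ttn, the giant titin, rose by 0.21 ± 0.028, and Myh7, the slow myosin of the fetal heart programme, rose by 1.07 ± 0.18. No difference between the thin and thick filament lists was tested.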

How the data were processed

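Heart RNA was depleted of ribosomal RNA before library preparation, per the labels' protocols. The authors' gene table gives 16913 genes as counts, and the deposited lncRNA table holds expected counts for 3787 transcripts. The submitters' processing notes name cutadapt 2.3, STAR 2.7.8a, RSEM 1.3.3, FastQC 0.11.8, MultiQC 1.7 and the builds GRCm38 and mm10, without their roles. GENCODE M21 gave symbols to 16879 genes, and lengths. RefSeq gave promoters for all 7 analysed members; protein sequences were not used here. Tnni3 shares 86 exon bases with Dnaaf3, and Tpm4 shares 134 with the antisense Gm26586.

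The members and lists were chosen with earlier results of these data known. Gene columns were joined to lncRNA columns, as described with the results, by log2 CPM with a pseudocount of 0.5 over transcripts with a mean of at least 20 counts. Counts were tested with edgeR 4.0.16 (R 4.3.3): TMM, filterByExpr, which kept all genes, 1 quasi-likelihood model in which every group had its own mean, and Benjamini-Hochberg adjustment over all genes at 0.05. The tests were tried on simulated data. DESeq2 1.42.0 and limma 3.58.1 voom with quality weights were alternatives, as were other scalings, columns by name, males or females alone, a replicate block and leaving out each library. All members were named. From the other lists, genes past the threshold in a genotype comparison or in TG male training were named, at most 6 per list by the smallest p. Actb, Prkca, Prkacb and Tnnt1 were named in addition after their values were seen. The alternatives for Acta1, and shares without 1 library, were added after seeing the data. For likeness, the 3 highest r among genes with a mean of at least 50 counts were named (log2 CPM, prior count 2). Samples are labelled as biological replicates. The standard error is that of the fitted log2 change.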

Additional observations from a re-analysis of the deposited data

Results flagged for a closer look

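Within a group, a library whose gap to the next was too large a part of the range (Dixon's criterion, 95%) was found in 3 of 56 sets of member values, where chance at 1 in 20 gives about 2.8. Tnni3 in trained TG male replicate 4 was 1953 CPM, below the 2607 to 3127 CPM of the other 7. Tpm3 in the same library was 62.5 CPM, above 45.4 to 51.2 CPM. This library also had the highest fibroblast and macrophage marker sums of its group, 1078 and 255.0 CPM against at most 719.1 and 192.4 CPM, and 688.8 CPM of Acta1 against at most 336.8 CPM. Tpm4 in sedentary nTG male replicate 6 was 73.2 CPM, above 57.5 to 63.8 CPM in the other 6, and without it the genotype difference of Tpm4 in sedentary males was 0.15 in place of 0.10 (edgeR, adjusted p = 0.133).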

How the results depend on the processing

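With gene columns by name, 0 of 7 members passed in each of the 4 genotype comparisons, in their mean, in TG male training and between the sexes of sedentary TG mice, where 0.0% of all genes did, and 4 passed for training in the mean of the nTG sexes, where 14.2% of all genes did. By name, Tnnc1 turned to 0.054 and 0.038 (sedentary and trained males), 0.012 (sedentary females), 0.022 in the mean and -0.109 in the nTG training mean, Tpm1 to 0.053 (trained males), 0.005 (sedentary females) and -0.189 (nTG training mean), and Tpm3 to -0.026 in trained females, 0.053 in TG male training and 0.159 in the nTG training mean, where Tpm4 was 0.191. Columns by name contradict sex or genotype in 45 libraries.

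With joined columns no call of a member turned its direction under any alternative. Sedentary females had 1 member in place of 2 with median-of-ratios scaling, the replicate block or females alone (4.19%, 4.39% and 3.86% of all genes). Trained females had 3 in place of 5 with the block or females alone (11.7% and 13.1%). Further calls that alternatives lost or gained in sedentary males, trained males and trained females are named with Tnni3, Tpm4 and Actc1 above. Limma voom gave 2 in place of 1 for TG male training, with 26.8% of all genes in place of 18%, and 1 in place of 0 for the mean of the TG sexes, with 10.7% in place of 0.52%. DESeq2 and voom gave 1 in place of 0 between the sexes of sedentary nTG mice (3.03% and 3.15% of all genes). Leaving out 1 library at a time gave 4 to 4 members in males (sedentary), 2 to 4 (trained), 1 to 2 in females (sedentary), 2 to 5 (trained), 6 to 6 in the mean of the 4, 0 to 2 in TG male training, 0 to 1 in the nTG training mean, 0 to 1 and 1 to 1 between the sexes of sedentary nTG and TG mice, and 0 to 0 in the others. Same-numbered libraries of different groups had a median r of 0.01 over 205 pairs, against 0 for other pairs. Of the 205, 51 were over 0.1, and 7 of 64 libraries correlated best with one of their own number. No chance rate was computed for these counts, so they cannot decide whether the replicate numbers pair the samples. With the replicate block, 4 and 3 members passed in sedentary and trained males and 6 in the mean of the 4, beside 21.8%, 14.1% and 38.4% of all genes. The block lost the calls of Tnnc1 in sedentary females (-0.14, adjusted p = 0.0560) and of Tpm3 (0.14, adjusted p = 0.1104) and Tpm4 (0.195, adjusted p = 0.0724) in trained females. The lowest member count in a library was 498, and the effect of depth on the calls was not tested.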
